A study of Mus musculus with 6 samples.

Results

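The 6 genes described here make, export or use ketone bodies: Acat1, Bdh1, Bdh2, Oxct1, Slc16a1 and Aacs. They were chosen by name for their role in ketone metabolism, and each name occurs once in the gene count table, which holds 54532 genes. All 6 passed the filter on low counts, as did 13706 genes in all. RNA sequencing was done on whole liver of mice aged 5 weeks, with 3 libraries from Fam210aHKO mice, in which Fam210a is knocked out in hepatocytes, and 3 from Ctrl mice. FAM210A sits in the inner membrane of mitochondria, and the comparison asks what its loss from hepatocytes does to gene expression in the young liver. The Cre driver, the deleted part of the gene, the sex of the mice and the alleles carried by the Ctrl mice were not given in the sources used here. The genotype label of Fam210aHKO replicates 2 and 3 names other gene numbers than Fam210a, so the titles, which read Fam210aHKO for all 3, set the groups. The labels do not say that each library is a separate animal, so p-values cover only the spread among these libraries, and some of that spread may be technical.

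Ketone bodies are made in the mitochondria of hepatocytes from the acetyl-CoA that fatty acid oxidation yields. A thiolase (ACAT1) joins acetyl-CoA units to acetoacetyl-CoA, further steps turn this into acetoacetate, and BDH1 reduces acetoacetate to beta-hydroxybutyrate. Both leave the hepatocyte through monocarboxylate transporters such as MCT1, the product of Slc16a1. Tissues such as heart and brain burn them through OXCT1, which moves coenzyme A from succinyl-CoA to acetoacetate and which hepatocytes largely lack. AACS activates acetoacetate in the cytosol for lipid synthesis.

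Library totals were between 12.5 and 19.7 M counts (M, mega). Fam210a stood at 31.7, 28.6 and 44.2 CPM in Fam210aHKO replicates 1 to 3, against 119, 136 and 162 CPM in Ctrl replicates 1 to 3 (CPM, counts scaled to library totals of 1 M after TMM correction). Its log2 fold change was -1.99 (SE 0.194, edgeR adjusted p = 4.4e-05). TMM factors were between 1.16 and 1.19 in Fam210aHKO and between 0.797 and 0.887 in Ctrl, and scaling by library totals alone shifted the median log2 fold change over the tested genes by 0.45. Fold changes are therefore relative to this median, and values with library totals stand beside them where they differ in call or direction. Fam210aHKO replicate 1 stood apart in ribosomal RNA: mt-Rnr1, a mitochondrial ribosomal RNA, was at 1704, 7.29 and 4.52 CPM in Fam210aHKO replicates 1 to 3, against 2.26, 2.68 and 1.88 CPM in Ctrl replicates 1 to 3. Results that rest on this library are given with and without it, and the part of this signal in them was not tested. In bulk liver, fewer cells of a type and less RNA per cell cannot be told apart.

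Acat1 and Bdh2 fell in Fam210aHKO livers, and the other 4 genes were not called. Acat1 fell to 54.8% of the Ctrl level and Bdh2 to 40.4%. Thus 0 of 6 genes were called higher and 2 lower by edgeR at an adjusted p under 0.05, against 14.0% of all tested genes called higher and 13.5% called lower. At an unadjusted p under 0.05, 1 gene (Aacs) was higher and 2 were lower. How many of all tested genes passed this unadjusted threshold was not counted, so unadjusted counts here and for the lists below have no background. DESeq2 called 1 gene (Aacs) higher and 2 lower at an adjusted p under 0.05, against 1853 higher and 1953 lower among all tested genes. The median log2 fold change of the 6 genes was 0.078, against 0.017 for all tested genes. For 3 of the 6 genes, 2 lower and 1 higher, the CPM ranges were separate, where 20.7% of all tested genes were lower without overlap and 22.0% higher. With the replicate number as a block, 2 genes (Slc16a1 and Aacs) were called higher and 2 lower, against 17.8% and 18.0% of all tested genes. Without Fam210aHKO replicate 1 the blocked fit called 0 higher and 2 lower, against 1537 and 1699 of all tested genes. With library totals, 3 genes (Oxct1, Slc16a1 and Aacs) were called higher and 1 (Bdh2) lower, against 42.7% and 6.33% of all tested genes. On CPM of library totals the ranges were separate for 3 genes that were higher and 2 that were lower, against 51.9% and 7.06% of all tested genes.

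**Figure D1:**
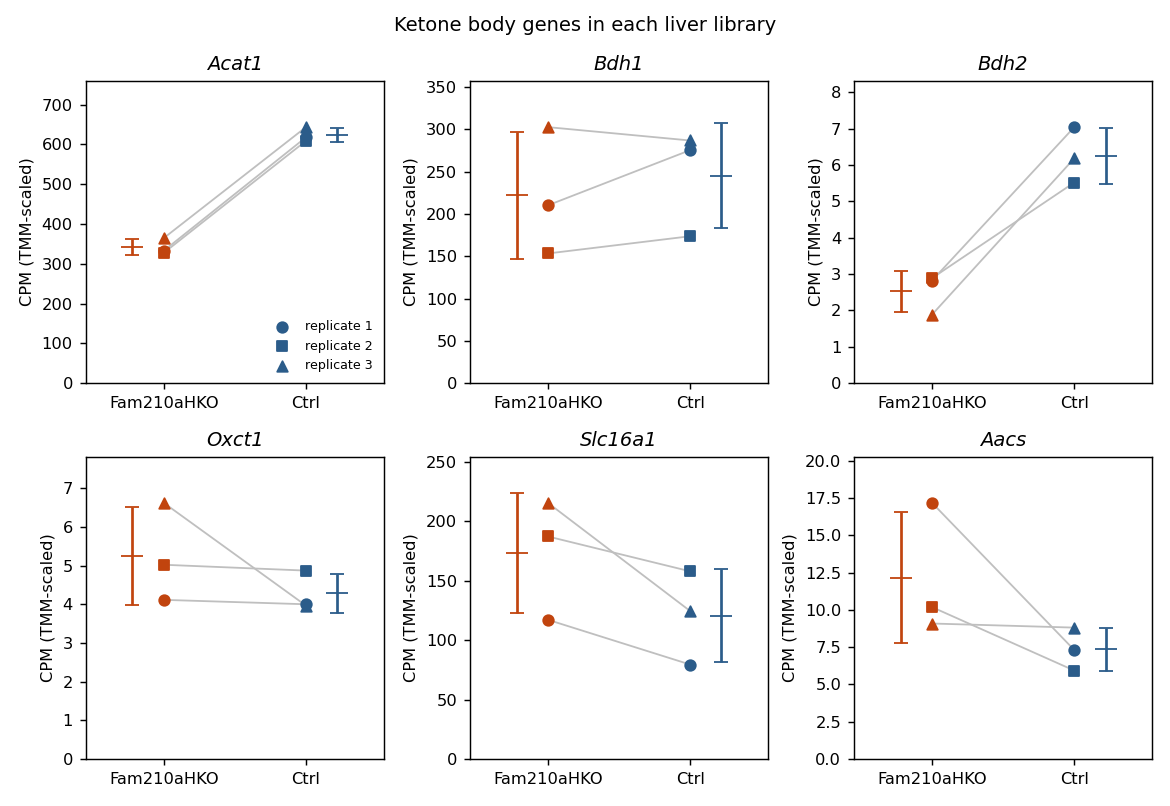
TMM-scaled CPM of each gene in the 3 Fam210aHKO (red) and 3 Ctrl (blue) libraries. Symbols mark the replicate number, grey lines join libraries of the same number, and crosses with bars give the mean and SD (n = 3). Acat1 and Bdh2 were lower in all 3 Fam210aHKO libraries, and the libraries of Bdh1 and Slc16a1 spread widely within each group.

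The promoters of Bdh2, which fell, and of Slc16a1 and Aacs, which were called higher in the fit with the replicate block, are given as the stretch before the gene start (RefSeq, GRCm38.p6, plus strand; 5 of the 6 genes have an entry). Capitals mark matches to the motifs searched. The Bdh2 window is chr3:135280971-135281220, the Slc16a1 window chr3:104638414-104638663 and the Aacs window chr5:125475623-125475813.
Bdh2: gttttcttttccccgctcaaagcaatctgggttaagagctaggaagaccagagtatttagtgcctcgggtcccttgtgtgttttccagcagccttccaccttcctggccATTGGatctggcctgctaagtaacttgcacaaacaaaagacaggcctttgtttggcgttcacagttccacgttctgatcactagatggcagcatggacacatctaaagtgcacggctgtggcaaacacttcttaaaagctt
Slc16a1: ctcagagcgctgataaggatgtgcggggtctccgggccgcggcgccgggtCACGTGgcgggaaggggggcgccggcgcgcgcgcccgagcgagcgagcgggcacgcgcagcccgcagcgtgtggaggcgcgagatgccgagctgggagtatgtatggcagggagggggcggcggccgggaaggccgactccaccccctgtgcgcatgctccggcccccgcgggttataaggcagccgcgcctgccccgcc
Aacs: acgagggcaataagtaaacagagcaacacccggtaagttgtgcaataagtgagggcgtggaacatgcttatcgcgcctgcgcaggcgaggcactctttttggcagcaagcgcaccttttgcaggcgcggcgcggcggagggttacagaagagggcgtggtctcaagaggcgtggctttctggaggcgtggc
The Slc16a1 stretch has 37 CpG dinucleotides in 250 bases and a GC content of 76.4%, against 5 and 48% in the Bdh2 stretch of the same length. The Aacs stretch has 16 CpG dinucleotides in 191 bases and a GC content of 59.2%. The motifs were searched on both strands in the 250 bases before each start, for all 32851 promoters of the table. The E-box CACGTG was found once in the Slc16a1 window, 200 bases before the start, and in 6.02% of all promoters. The CCAAT box was found once, on the minus strand, in the Bdh2 window and in 33.8% of all promoters. The core of the ATF4 response element (TGATGNAA, 3.45% of all promoters), the sterol regulatory element (TCACNCCAC, 1.05%) and the direct repeat of AGGTCA spaced by 1 base, which PPARA binds with RXR (0.0335%), had no match in the windows of the 5 genes. No match overlapped another.

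Acat1, the mitochondrial acetoacetyl-CoA thiolase, works at the entry to ketone body synthesis, at the last step of their use and in the breakdown of isoleucine. The gene lies on the minus strand of chromosome 9 from 53580522 to 53610382 (mm10) and spans 29.9 kb, with 12 exons in its coding transcript. Its level was 333, 327 and 364 CPM in Fam210aHKO replicates 1 to 3, against 618, 609 and 643 CPM in Ctrl replicates 1 to 3. The groups lay far apart and the libraries within each were close together. The means were 341 ± 20.1 CPM in Fam210aHKO and 623 ± 17.9 CPM in Ctrl (SD, n = 3 each), a log2 fold change of -0.87 (SE 0.149, edgeR adjusted p = 0.00161). The coefficient of variation was 5.88% in Fam210aHKO and 2.87% in Ctrl, below the medians of 14.3% and 15% of the 425 genes with a mean count within 2-fold of it. With library totals the edgeR call was lost (log2 fold change -0.42, adjusted p = 0.0522), although all 3 Fam210aHKO libraries (395, 379 and 423 CPM of library totals) stayed below the 3 Ctrl libraries (547, 484 and 567 CPM).

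Bdh1 encodes the dehydrogenase of the mitochondrial inner membrane that interconverts acetoacetate and beta-hydroxybutyrate. It lies on the plus strand of chromosome 16 from 31422280 to 31458901 and has up to 7 exons in a coding transcript. Bdh1 stood at 210.1, 153 and 302 CPM in Fam210aHKO replicates 1 to 3, against 275, 174 and 287 CPM in Ctrl replicates 1 to 3. The groups overlapped over nearly their whole range, and replicate 2 was the lowest library in each. The log2 fold change was -0.14 (SE 0.254, edgeR adjusted p = 0.717), with an unadjusted 95% interval from -0.70 to 0.42. It turned to 0.29 with library totals (edgeR adjusted p = 0.377) and to 0.12 with library totals without the 50 most abundant genes. The coefficient of variation was 33.9% in Fam210aHKO and 25.4% in Ctrl, against medians of 12.7% and 14.4% for the 865 genes of similar mean count. An antisense gene, Gm15743, overlaps Bdh1 with 30 counts over all 6 libraries, and whether counting used strand was not given in the sources used here.

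Bdh2, also named Dhrs6, encodes a cytosolic short-chain dehydrogenase that shares the name hydroxybutyrate dehydrogenase and has been studied in mice for a role in iron handling. The gene lies on the plus strand of chromosome 3 from 135281221 to 135304426 with up to 10 exons in a coding transcript. Counts were 59, 42 and 43 in Fam210aHKO replicates 1 to 3, against 81, 68 and 92 in Ctrl replicates 1 to 3. Scaled, these were 2.82, 2.89 and 1.89 CPM in Fam210aHKO and 7.04, 5.52 and 6.18 CPM in Ctrl. All 3 Fam210aHKO libraries lay below all 3 Ctrl libraries. The means were 2.53 ± 0.561 CPM in Fam210aHKO and 6.25 ± 0.764 CPM in Ctrl (SD, n = 3 each), a log2 fold change of -1.31 (SE 0.248, edgeR adjusted p = 0.00275). The call held in 21 of 21 alternatives, with log2 fold changes from -1.42 to -0.78, and was -0.86 with library totals (edgeR adjusted p = 0.018).

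Slc16a1 encodes MCT1, a proton-coupled carrier of lactate, pyruvate and ketone bodies. The gene lies on the plus strand of chromosome 3 from 104638668 to 104658462 and has 5 exons. Its level was 117, 187 and 216 CPM in Fam210aHKO replicates 1 to 3, against 79.5, 158 and 125 CPM in Ctrl replicates 1 to 3. Replicate 1 was the lowest library in each group, and the groups overlapped. The fit with group alone did not call it (log2 fold change 0.52, SE 0.264, edgeR adjusted p = 0.169; unadjusted 95% interval from -0.06 to 1.10). Between libraries of the same number, Fam210aHKO minus Ctrl was 0.56, 0.25 and 0.79 in log2 CPM for numbers 1 to 3. All 3 pairs were thus higher, as they also were for Oxct1 and Aacs. With the replicate number as a block the log2 fold change was 0.53 (SE 0.13, edgeR adjusted p = 0.00829). This call was lost without Fam210aHKO replicate 1 (0.50, edgeR adjusted p = 0.0551), where Ctrl replicate 1 is alone in its block and a whole pair is lost. Slc16a1 was also called with library totals (log2 fold change 0.99, edgeR adjusted p = 0.00734). Within groups its SD in log2 CPM was 0.46 in Fam210aHKO and 0.50 in Ctrl, against an SD of 0.27 for the pair differences. The intronic genes Gm43581 and Gm43585, on the same strand within Slc16a1, had 20 and 3 counts over all 6 libraries.

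Oxct1, the gene of the enzyme that commits acetoacetate to oxidation, ranked 9742 of 13706 tested genes by mean CPM. It lies on the plus strand of chromosome 15 from 4026383 to 4155344, spans 129 kb and has up to 17 exons in a coding transcript. Counts were 86, 73 and 151 in Fam210aHKO replicates 1 to 3, against 46, 60 and 59 in Ctrl replicates 1 to 3. Scaled, Oxct1 stood at 4.11, 5.02 and 6.62 CPM in Fam210aHKO and at 4.0, 4.87 and 3.97 CPM in Ctrl. Replicate 3 of Fam210aHKO was the highest, and the other 5 libraries overlapped. The log2 fold change was 0.30 (SE 0.243, edgeR adjusted p = 0.397; unadjusted 95% interval from -0.24 to 0.83), and 0.092 without Fam210aHKO replicate 3. Pair differences between libraries of the same number were 0.039, 0.043 and 0.72 in log2 CPM, and the replicate block did not call Oxct1 (edgeR adjusted p = 0.371). With library totals Oxct1 was called higher (log2 fold change 0.75, edgeR adjusted p = 0.0218), at 4.89, 5.82 and 7.68 CPM of library totals in Fam210aHKO against 3.54, 3.87 and 3.50 CPM in Ctrl. The opposite-strand gene BC037032 overlaps Oxct1 and had 4 counts over all 6 libraries.

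Aacs encodes acetoacetyl-CoA synthetase, which activates acetoacetate in the cytosol for the synthesis of sterols and fatty acids. It lies on the plus strand of chromosome 5 from 125475814 to 125517410 and has 18 exons in its coding transcript. Aacs stood at 17.2, 10.2 and 9.08 CPM in Fam210aHKO replicates 1 to 3, against 7.30, 5.93 and 8.81 CPM in Ctrl replicates 1 to 3. The groups did not overlap, but the lowest Fam210aHKO library and the highest Ctrl library, both replicate 3, were nearly level, and replicate 1 of Fam210aHKO stood apart. The means were 12.1 ± 4.39 CPM in Fam210aHKO and 7.35 ± 1.44 CPM in Ctrl (SD, n = 3 each). The log2 fold change of 0.72 (SE 0.263) missed the threshold in edgeR (adjusted p = 0.0635), with an unadjusted 95% interval from 0.14 to 1.30. It was 0.37 without Fam210aHKO replicate 1 (edgeR adjusted p = 0.308) and 0.90 without Fam210aHKO replicate 3 (edgeR adjusted p = 0.0283). With the replicate block Aacs was called higher (log2 fold change 0.68, edgeR adjusted p = 0.0359), and the pair differences were 1.22, 0.77 and 0.044 in log2 CPM. The SD of these differences was 0.59, above the SD within Fam210aHKO (0.49) and within Ctrl (0.28). Without Fam210aHKO replicate 1, the library high in ribosomal RNA, the blocked fit gave 0.37 (edgeR adjusted p = 0.342), no longer a call. Ctrl replicate 1 is then alone in its block, so a whole pair is lost from the group effect. Aacs was also called with library totals (log2 fold change 1.17, edgeR adjusted p = 0.00541, and 0.82 with an edgeR adjusted p of 0.0211 without Fam210aHKO replicate 1). DESeq2 called it too (log2 fold change 0.71, DESeq2 adjusted p = 0.0446).

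**Figure D2:**
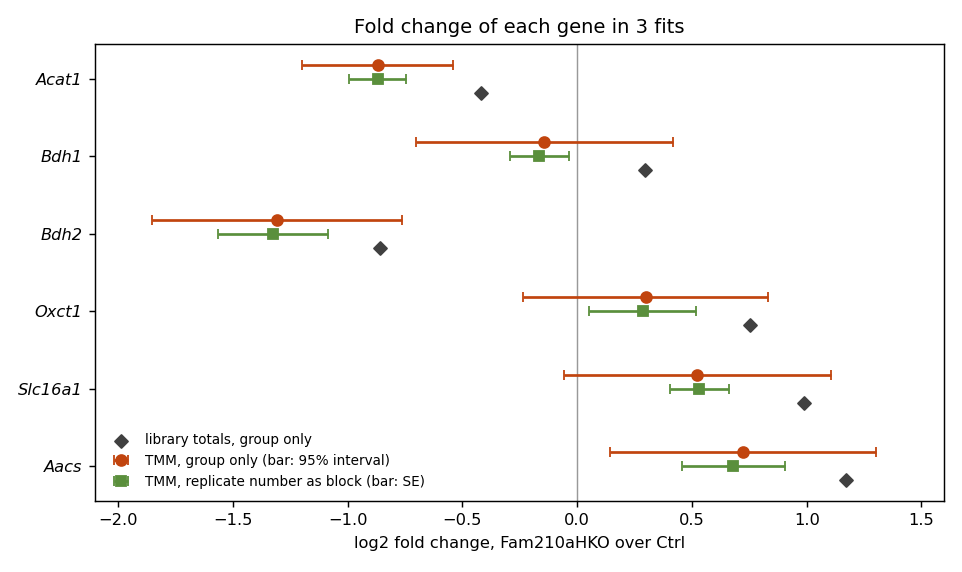
Log2 fold change of each gene, Fam210aHKO over Ctrl, in the fit with TMM factors and group alone (circles, unadjusted 95% interval), with the replicate number as a block (squares, SE) and with library totals (diamonds). Acat1 and Bdh2 lie below 0 and Oxct1, Slc16a1 and Aacs above 0 in all 3 fits, while Bdh1 turns from -0.14 with TMM to 0.29 with library totals.

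Between the 6 genes, levels are given as CPM per kilobase, with the table's gene lengths. In Fam210aHKO livers the order was Acat1 (90.8 ± 5.34 CPM per kb), Bdh1 (57.1 ± 19.4), Slc16a1 (39.2 ± 11.5), Aacs (3.15 ± 1.14), Oxct1 (1.42 ± 0.343) and Bdh2 (0.596 ± 0.132; SD, n = 3). In Ctrl livers it was Acat1 (166 ± 4.77 CPM per kb), Bdh1 (63.0 ± 16.0), Slc16a1 (27.3 ± 8.90), Aacs (1.91 ± 0.374), Bdh2 (1.47 ± 0.18) and Oxct1 (1.16 ± 0.139; SD, n = 3). The order of the first 4 was thus shared, and the last pair changed places. Bdh1 was above Slc16a1 in 2 of 3 Fam210aHKO and in 3 of 3 Ctrl libraries, so these neighbours did not differ beyond their spread in Fam210aHKO. Bdh2 was above Oxct1 in 0 of 3 Fam210aHKO and in 2 of 3 Ctrl libraries. Mean Acat1 was 2.32 times mean Slc16a1 in Fam210aHKO and 6.08 times in Ctrl, and it was 64.0 times mean Oxct1 in Fam210aHKO and 143 times in Ctrl.

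Ratios between genes of the same library do not depend on how libraries are scaled. The log2 ratio of Acat1 to Slc16a1 counts was 1.51, 0.80 and 0.76 in Fam210aHKO replicates 1 to 3, against 2.96, 1.95 and 2.37 in Ctrl replicates 1 to 3. The thiolase was thus lower relative to the carrier in every Fam210aHKO library, with a mean difference of -1.40. The log2 ratio of Acat1 to Bdh1 was 0.66, 1.10 and 0.27 in Fam210aHKO, against 1.17, 1.81 and 1.17 in Ctrl, again without overlap. The log2 ratio of Bdh2 to Aacs averaged -2.23 ± 0.395 in Fam210aHKO and -0.22 ± 0.251 in Ctrl (SD, n = 3 each), and the difference of -2.01 was the largest of the 15 pairs. Acat1 was lower in Fam210aHKO relative to Bdh1, Oxct1, Slc16a1 and Aacs, and Bdh2 was lower relative to each of the other 5 genes. For these 9 of 15 pairs the groups did not overlap, as for 45.5% of all pairs of tested genes. Each of the 9 holds Acat1 or Bdh2, whose own ranges were separate. The exact permutation test (two-sided) gave p = 0.1 for each, the smallest that 3 libraries against 3 allow (0.167 adjusted over 15 pairs). The 6 pairs among Bdh1, Oxct1, Slc16a1 and Aacs overlapped. Their exact permutation p-values were between 0.3 and 0.9, and the log2 ratio of Slc16a1 to Aacs was 3.85 ± 0.951 in Fam210aHKO and 4.0 ± 0.665 in Ctrl.

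**Figure D3:**
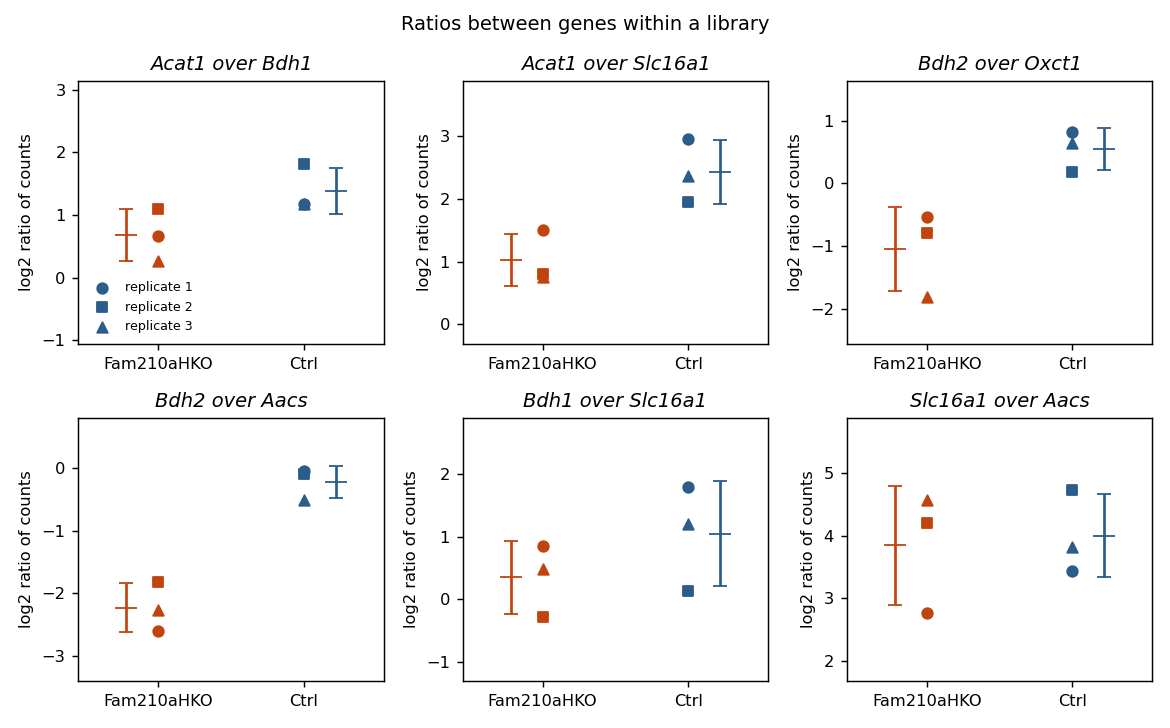
Log2 ratio of the counts of 2 genes in the same library, for 6 of the 15 pairs, in Fam210aHKO (red) and Ctrl (blue); crosses with bars give the mean and SD (n = 3), and each panel spans the same height. The groups do not overlap for the first 4 pairs and overlap for Bdh1 over Slc16a1 and Slc16a1 over Aacs.

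Of 13 tested relatives and partners of Slc16a1, 1 was higher and 0 were lower under TMM, against 14.0% and 13.5% of all tested genes. The median log2 fold change of the 13 was -0.07. With library totals the median was 0.38 and 4 were higher, against 42.7% of all tested genes. At an unadjusted p under 0.05 there were 2 higher and 3 lower. By DESeq2 2 were higher and 1 lower, against 1853 higher and 1953 lower among all tested genes. The 1 called higher by edgeR was Emb, which encodes embigin, an ancillary protein of monocarboxylate transporters, at 1.95 ± 0.241 CPM in Fam210aHKO and 0.836 ± 0.218 CPM in Ctrl (log2 fold change 1.20, edgeR adjusted p = 0.02). Without Fam210aHKO replicate 1 or without Ctrl replicate 1, 0 of the 13 were called higher, without Fam210aHKO replicate 3 there were 2, and with the replicate block there were 3. Of 3 tested genes on the succinyl-CoA side of ketone use 0 were higher and 1 lower, Sucla2, a subunit of succinyl-CoA synthetase, at 121 ± 9.67 CPM in Fam210aHKO and 173 ± 20.8 CPM in Ctrl (log2 fold change -0.51, edgeR adjusted p = 0.0235; -0.05 with library totals, not called). At an unadjusted p under 0.05, 0 were higher and 2 lower. No gene of this list was called lower without Fam210aHKO replicate 1, Fam210aHKO replicate 3 or Ctrl replicate 2, and 2 were lower without Ctrl replicate 3 or with the replicate block.

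Of 24 tested genes that bring fatty acids to ketogenesis, 6 were lower and 2 higher, against 13.5% and 14.0% of all tested genes. At an unadjusted p under 0.05, 12 were lower and 2 higher, and the median log2 fold change was -0.35. With library totals the median was 0.10, with 5 higher and 3 lower, against 42.7% and 6.33% of all tested genes. Of the genes of uptake and activation, Slc27a5 stood at 392 ± 82.1 CPM in Fam210aHKO and 1203 ± 111 CPM in Ctrl (log2 fold change -1.62, edgeR adjusted p = 2e-04), and Slc27a2 at 935 ± 89.7 CPM in Fam210aHKO and 2202 ± 269 CPM in Ctrl (log2 fold change -1.24). The fatty acid transporter Cd36 rose (235 ± 72.2 CPM in Fam210aHKO and 117 ± 20.5 CPM in Ctrl), as did the lipase Pnpla2 (249 ± 67.2 CPM in Fam210aHKO and 137 ± 37.9 CPM in Ctrl). With the replicate block 12 were lower, against 18.0% of all tested genes, and with DESeq2 10, against 1953 of all tested genes. Without Fam210aHKO replicate 2, Ctrl replicate 1 or Ctrl replicate 3, 1 was higher. Ketogenic amino acids end in acetoacetate or acetyl-CoA, and of 21 tested genes of their breakdown 14 were lower and 0 higher, with a median of -0.95 (10 lower and a median of -0.50 with library totals). At an unadjusted p under 0.05, 0 were higher and 15 lower, without a count over all tested genes. By DESeq2 0 were higher and 14 lower, against 1853 and 1953 of all tested genes. Aadat, of lysine breakdown, stood at 58.6 ± 0.900 CPM in Fam210aHKO and 152 ± 6.87 CPM in Ctrl (log2 fold change -1.38, edgeR adjusted p = 3.7e-05). Hpd, of tyrosine breakdown, stood at 1026 ± 48.0 CPM in Fam210aHKO and 3587 ± 250 CPM in Ctrl, and Ivd, of leucine breakdown, at 110 ± 6.58 CPM in Fam210aHKO and 237 ± 15.9 CPM in Ctrl.

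Among 16 regulators of ketogenesis 3 were higher and 8 lower, against 14.0% and 13.5% of all tested genes, with a median of -0.37. With library totals the median was 0.07, with 5 higher and 1 lower, against 42.7% and 6.33% of all tested genes. Without Fam210aHKO replicate 2, 5 were lower. The hormone Fgf21 stood at 115 ± 40.9 CPM in Fam210aHKO and 3.48 ± 1.28 CPM in Ctrl, and the kinase Pdk4, which restrains pyruvate oxidation, at 183 ± 73.2 CPM in Fam210aHKO and 16.3 ± 4.94 CPM in Ctrl (log2 fold change 3.48). The transcription factor Cebpa fell (136 ± 14.2 CPM in Fam210aHKO and 325 ± 78.7 CPM in Ctrl). Sirt3, a mitochondrial deacetylase, fell by 0.68 on the log2 scale and the coactivator Ppargc1a by 0.69, and neither was called with library totals (edgeR adjusted p = 0.217 and 0.26). Of 14 tested genes that use acetyl-CoA or acetoacetyl-CoA in the cytosol, where AACS works, 1 was higher and 4 lower. Their median was -0.25, and 14.0% of all tested genes were higher and 13.5% lower. With library totals the median was 0.20, with 5 higher and 3 lower, against 42.7% and 6.33% of all tested genes. Sqle, of sterol synthesis, rose (29.1 ± 8.34 CPM in Fam210aHKO and 11.5 ± 4.05 CPM in Ctrl). With the replicate block 3 members were called higher, against 17.8% of all tested genes. The fit with group alone but without Fam210aHKO replicate 3 called 2 higher, against 1897 of all tested genes. The thiolase Acat3 fell (36.5 ± 5.58 CPM in Fam210aHKO and 119 ± 26.7 CPM in Ctrl), as did the acetate-activating Acss2 and the transcription factor Srebf1 (log2 fold changes -1.10 and -1.31).

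**Figure D4:**
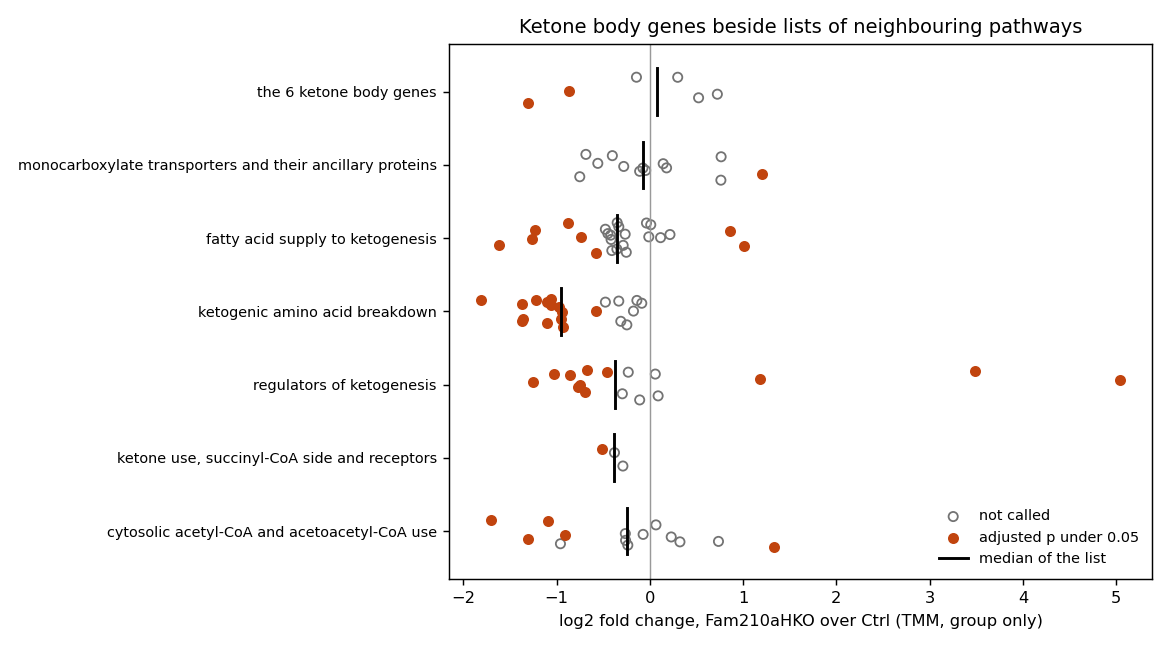
Log2 fold change (TMM, group alone) of the 6 ketone body genes and of the tested genes of 6 lists of neighbouring pathways. Filled points had an edgeR adjusted p under 0.05, open points did not, and bars are list medians. The list of ketogenic amino acid breakdown has the lowest median, -0.95, and the 6 genes the highest, 0.078.

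The genes whose profile over the 6 libraries was most like each of the 6 were found by the root mean square difference of centred log2 CPM, among 12708 genes. For Acat1 these were Cbs (0.0172) and Acad8 (0.0434), for Bdh1 Gclc (0.0446) and Ppm1l (0.0565), and for Bdh2 Adh6-ps1 (0.0768) and Gbp6 (0.0803). For Oxct1 they were Apobec1 (0.0565) and Neurl3 (0.0643), for Slc16a1 Cep170 (0.0636) and Nceh1 (0.0721), and for Aacs Frmd4b (0.114) and Scrib (0.122). The median difference over all candidates was between 0.388 for Oxct1 and 0.725 for Bdh2.

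Some markers of liver cell types also differed between Fam210aHKO and Ctrl. Of all tested genes 14.0% were called higher and 13.5% lower under TMM, and 42.7% and 6.33% with library totals. Of 10 hepatocyte markers 6 were lower under TMM and 5 with library totals. Their summed level was between 89696 and 114530 CPM in Fam210aHKO and between 160660 and 246600 CPM in Ctrl. Most of that sum was Alb, with means of 74313 CPM in Fam210aHKO and 136500 CPM in Ctrl. Alb itself was not called (edgeR adjusted p = 0.449 under TMM and 0.589 with library totals). Of 7 periportal markers 5 were lower under either scaling and 1 was higher with library totals, and of 7 pericentral markers 4 were lower under TMM and 1 with library totals. Of 5 tested cholangiocyte markers 3 were higher under TMM and 4 with library totals. The summed level of that list was between 136 and 277 CPM in Fam210aHKO and between 39.4 and 59.0 CPM in Ctrl, most of it from Spp1, and the other 7 markers summed to between 8.94 and 21.0 CPM in Fam210aHKO and between 6.72 and 9.30 CPM in Ctrl. Of 10 macrophage markers 4 were higher under TMM and 7 with library totals. Their summed ranges overlapped (427 to 813 CPM in Fam210aHKO and 509 to 642 CPM in Ctrl). Of 8 stellate cell and fibroblast markers 2 were higher under TMM and 5 with library totals. They summed to between 430 and 638 CPM in Fam210aHKO and between 330 and 386 CPM in Ctrl. Of 8 sinusoidal endothelial markers 2 were lower under TMM and 0 with library totals. Their summed ranges also overlapped (236 to 386 CPM in Fam210aHKO and 359 to 454 CPM in Ctrl). Of 6 proliferation genes 5 were higher under TMM and 6 with library totals, summing to between 103 and 149 CPM in Fam210aHKO and between 31.7 and 43.4 CPM in Ctrl. Of the tested markers of T and NK cells (2), B cells (3) and neutrophils (2), 0 were called under TMM by edgeR, by DESeq2 or at an unadjusted p under 0.05, and 1 neutrophil marker was higher with library totals. Of 5 erythroid markers, Alas2 was lower under both scalings. The 4 globin genes had log2 fold changes between 1.22 and 1.75 that were not called under TMM, and 3 of them were called higher with library totals. The globins spread widely in Fam210aHKO, with Hba-a1 at 44.3 ± 58.5 CPM and Hbb-bs at 38.9 ± 44.8 CPM (SD, n = 3). The summed ranges of the erythroid list overlapped (24.0 to 238 CPM in Fam210aHKO and 82.9 to 86.0 CPM in Ctrl). Beside the fall of Acat1 and Bdh2 and the values of Oxct1, Slc16a1 and Aacs, the part of these shifts in cell type markers was not tested.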

How the data were processed

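Liver RNA of 6 libraries was analysed, 3 Fam210aHKO and 3 Ctrl. RNA was extracted with TRIzol and mRNA enriched on poly-T beads, per the labels' protocols. The authors deposited whole-number counts per gene, without normalization, and FPKM values per kilobase of gene length and per M of a library-specific size. The tools were STAR, featureCounts, Trimmomatic, FastQC and DESeq2 with the mm10 build, per the submitters' processing notes. Versions, strand setting and multimapping were not given in the sources used here. The coordinates of the 6 genes are the same in GENCODE M21.

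Counts were tested in edgeR 4.0.16 under R 4.3.3 (filterByExpr with a minimum count of 10, TMM factors, quasi-likelihood F test of edgeR 4, two-sided, group as the only factor), with Benjamini-Hochberg adjustment over 13706 genes and calls at 0.05. The SE was taken as |log2 fold change| over the root of F. Intervals (95%) use the moderated degrees of freedom. CPM use TMM-scaled totals. A count of 3 was 0.153 to 0.239 CPM, and intervals cover the spread between libraries. No chance test over lists was run. Deviations of same-numbered libraries had r across genes of 0.245, 0.182 and 0.155, and unlike numbers had -0.141 to -0.0262. Deviations sum to 0 within a group, so positive values for same numbers force lower ones for unlike numbers. This contrast therefore does not establish a pairing. The number was used as a block in alternative fits only, and its meaning was not given in the sources used here. The called genes with the smallest p of each list were named, at most 3 in its commoner direction and 2 in the rarer one; others are marked where named. Some other genes of ketone body synthesis are not reported here. The members, lists and rules were chosen with earlier results of these data known. Shared sequence was checked by 50-base stretches of GENCODE transcripts: 11.1% of those of Bdh1 and 11.2% of those of Oxct1 were shared, both with the opposite-strand genes named in the text, and 0% to 0.0511% of those of the other 4 genes. Alternatives used limma 3.58.1 and DESeq2 1.42.0. The scripts were tested on simulated data.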

Additional observations from a re-analysis of the deposited data

How the results depend on the processing

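Median-of-ratios and upper-quartile scaling gave the same calls among the 6 genes as TMM (0 higher, 2 lower). Of all tested genes, median-of-ratios scaling called 1866 higher and 1899 lower, and upper-quartile scaling 1968 and 1755. With library totals 3 of the 6 genes were called higher and 1 lower, and of all tested genes 5846 higher and 868 lower, against 1922 and 1852 with TMM. The log2 fold changes with library totals were -0.42 for Acat1 (no longer called), 0.29 for Bdh1 (turned), 0.75 for Oxct1, 0.99 for Slc16a1 and 1.17 for Aacs (the last 3 now called). With library totals without the 50 most abundant genes 2 were called higher, Slc16a1 (0.78) and Aacs (0.97), Bdh1 turned to 0.12, and of all tested genes 3699 were higher and 1170 lower. Aacs alone was called higher (1 gene) with no filter (0.76) and with DESeq2 (0.71). With the replicate block 2 genes were called higher, Slc16a1 (0.53) and Aacs (0.68), and the block changed no other call among the 6. Without Fam210aHKO replicate 1 the block called 0 higher and 2 lower (1537 and 1699 of all tested genes). Library totals without that library gave 3 higher and 1 lower (4867 and 777 of all tested genes), with -0.41 for Acat1, 0.32 for Bdh1, 0.90 for Oxct1, 1.20 for Slc16a1 and 0.82 for Aacs. Leaving out each library in turn, the genes called higher numbered between 0 and 1 and those called lower 2 each time. Of all tested genes these fits called between 1339 and 1897 higher and between 1334 and 1834 lower. The log2 fold change then lay between -0.43 and 0.067 for Bdh1 and between 0.37 and 0.90 for Aacs, and Bdh1 turned without Fam210aHKO replicate 2 (0.067). Bdh2 was called in 21 of 21 alternatives and Acat1 in 19 of 21. The legacy quasi-likelihood test without robust estimation and both combinations without Fam210aHKO replicate 1 were chosen after seeing the data. The cause of these changes was not tested. Bdh2 and Oxct1 rest on 42 to 151 counts per library, where counting error alone is about 12.5% and 11.2% of the mean count. Aacs rests on 73 to 359 counts per library, with a counting error of about 7.74% of the mean count.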

Other observations

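Several genes of ketone handling were at or near 0 in these livers and were not tested. Oxct2a, the testis paralogue of Oxct1, the sodium-coupled carriers Slc5a8 and Slc5a12 and the receptor Ffar3 had 0 counts in all 6 libraries. Oxct2b had 3, 1 and 3 counts in Fam210aHKO replicates 1 to 3, against 0 in each Ctrl library. Hcar2, a receptor for beta-hydroxybutyrate, had 3, 7 and 13 counts in Fam210aHKO replicates 1 to 3, against 3, 1 and 3 in Ctrl replicates 1 to 3. Hcar1, a lactate receptor, had 0 counts in each Fam210aHKO library, against 2, 0 and 3 in Ctrl replicates 1 to 3.

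For Slc16a1 the deviations from the group mean in log2 CPM were -0.52, 0.16 and 0.36 in Fam210aHKO replicates 1 to 3 and -0.55, 0.44 and 0.10 in Ctrl replicates 1 to 3. For Bdh1 they were -0.023, -0.48 and 0.50 in Fam210aHKO and 0.20, -0.46 and 0.26 in Ctrl. Those of Acat1 were -0.036, -0.059 and 0.096 in Fam210aHKO and -0.012, -0.034 and 0.046 in Ctrl. Those of Bdh2 were 0.17, 0.21 and -0.38 in Fam210aHKO and 0.18, -0.17 and -0.0079 in Ctrl. Those of Oxct1 were -0.32, -0.037 and 0.35 in Fam210aHKO and -0.088, 0.19 and -0.10 in Ctrl. Those of Aacs were 0.55, -0.19 and -0.36 in Fam210aHKO and 0.010, -0.29 and 0.28 in Ctrl.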
